A study of Mus musculus with 67 samples.

Results

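The genes described here encode, for the most part, nuclear-encoded structural subunits of the 5 protein complexes of oxidative phosphorylation. They were chosen by symbol among protein-coding genes (Nduf subunits of the A, B, C, S and V series, Sdha to Sdhd, every Uqcr gene and Cyc1, Cox4 to Cox8, and Atp5), and they numbered 86 of the 35539 genes in the deposited tables. Complex I held 37 of them, complex II 4, complex III 9, complex IV 18 and complex V 18. The rule places Ndufa4 in complex I by its symbol, although the protein is known as a complex IV subunit, and it misses 4 genes of the same machinery that carry other names: Ndufab1, Ndufb1-ps, Usmg5 and Atpif1. The rule also takes in Cox7a2l, counted in complex IV, which encodes a factor known for joining complexes III and IV into supercomplexes. A second gene identifier also carries the symbol Atp5o. It overlaps Atp5o and Donson on the same strand, and it was kept as a member of its own.

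RNA was measured in B cells and CD4+ T cells of C57BL/6 mice, with the question of how the inhibitory receptor Btla changes transcription in activated lymphocytes. The mice were either naive (not immunized) or immunized with MOG peptide, a myelin antigen that induces experimental autoimmune encephalomyelitis (EAE). Cells were purified by negative selection and left unstimulated or exposed for 18 h to latex beads. The beads engaged the antigen receptor, through anti-IgM/G on B cells and anti-CD3 on T cells, and also bore either a control immunoglobulin (CtrlIg) or anti-Btla. This anti-Btla antibody blocks the ligand Hvem from binding and also triggers the receptor. The stimulated arms were run with and without soluble interferon beta (IFNb). That made 20 groups of 3 libraries: unstimulated, CtrlIg, anti-Btla, CtrlIg with IFNb and anti-Btla with IFNb in B and in T cells of naive and of EAE mice. Mice of both sexes, 8 to 12 weeks old, were used in general. Whether unstimulated cells were cultured is not given by the labels or the methods. The comparison of CtrlIg with unstimulated cells, called activation below, therefore cannot tell receptor stimulation from 18 h of culture. Whether a replicate was 1 animal or a pool of animals is not given either, so the spread between replicates may be partly technical.

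Oxidative phosphorylation turns the energy of nutrients into ATP at the inner mitochondrial membrane. Complex I takes electrons from NADH and complex II takes them from succinate, as a step of the tricarboxylic acid cycle. Coenzyme Q carries them to complex III, cytochrome c carries them on to complex IV, and complex IV passes them to oxygen. Complexes I, III and IV pump protons as they do so, and complex V, the ATP synthase, lets the protons flow back to make ATP. Most subunits are encoded in the nucleus, a small set is encoded in the mitochondrial genome, and complex II is wholly nuclear-encoded. Resting lymphocytes depend on respiration, and activated lymphocytes are known to enlarge their mitochondria while they also turn up glycolysis.

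Promoters of 66 of the 86 members were found by symbol in the RefSeq table of mouse gene starts (GRCm38.p6), and the 250 bases before each start were read for letters that transcription factors of respiratory genes are known to bind. The NRF1 core GCATGCGC, read on both strands, was present before 8 of 66 members (12.1%), against 3.32% of the 17492 protein-coding genes in that table. The ETS core CCGGAAG, the letters bound by GABP, was present before 12 of 66 (18.2%), against 10.2%. The YY1 core ATGGCGGC was found before 1 member, Ndufa7 (1.52% against 1.41%). TATAAA was found before 6 of 66 (9.09%), against 13.7%. These matches are a description of letters in a window and not of binding. The following stretches are shown because they are the member promoters with NRF1 letters whose gene moved with the smallest p on activation of naive B cells, 1 for each complex that had such a promoter. They are printed 5′ to 3′ on the strand of the gene and end at the base before the start, with NRF1 and ETS letters in capitals. No complex III promoter in the table held the NRF1 letters in this window.
Ndufa8 (complex I, chr2:36049339-36049588, minus strand): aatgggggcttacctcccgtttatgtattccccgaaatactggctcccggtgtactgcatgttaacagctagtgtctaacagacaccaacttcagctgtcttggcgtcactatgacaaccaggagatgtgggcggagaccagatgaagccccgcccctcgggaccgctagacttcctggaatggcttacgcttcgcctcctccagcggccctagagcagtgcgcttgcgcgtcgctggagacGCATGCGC
Sdhb (complex II, chr4:140961021-140961270, plus strand): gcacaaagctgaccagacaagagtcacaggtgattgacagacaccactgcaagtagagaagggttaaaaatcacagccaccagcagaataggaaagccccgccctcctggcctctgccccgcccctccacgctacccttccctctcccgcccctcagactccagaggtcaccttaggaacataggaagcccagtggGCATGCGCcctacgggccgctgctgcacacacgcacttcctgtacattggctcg
Cox6a1 (complex IV, chr5:115348959-115349208, minus strand): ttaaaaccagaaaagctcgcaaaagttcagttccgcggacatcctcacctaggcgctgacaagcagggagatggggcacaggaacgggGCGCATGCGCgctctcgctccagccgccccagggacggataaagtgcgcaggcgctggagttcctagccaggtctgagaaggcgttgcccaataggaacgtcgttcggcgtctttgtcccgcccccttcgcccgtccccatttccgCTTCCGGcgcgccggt
Atp5l (complex V, chr9:44920743-44920992, minus strand): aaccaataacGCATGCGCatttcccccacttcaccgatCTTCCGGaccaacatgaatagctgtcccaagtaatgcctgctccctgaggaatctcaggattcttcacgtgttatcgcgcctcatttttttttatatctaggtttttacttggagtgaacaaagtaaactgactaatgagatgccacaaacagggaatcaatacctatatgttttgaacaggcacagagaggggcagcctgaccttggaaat
In Cox6a1 the capitals first hold the NRF1 core on both strands, in overlapping letters, and then the ETS core read on the other strand.

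Library depth ran from 6.7 to 61.9 M (mega) estimated counts in B cells (median 32.95) and from 7.3 to 34 M in T cells (median 13.15). The members took 0.356% to 0.663% of the counts in B libraries and 0.268% to 0.698% in T libraries. Levels of 1 gene between libraries are given below in CPM, the counts scaled to a common library total, and levels of different genes are compared in TPM, the same kind of share per transcript length, which allow for length. Both are shares of a library, so fewer cells of a type and less RNA per cell cannot be told apart. Markers were read for the labelled cell types: 6 T cell markers summed to at most 12.6 CPM in any B library, with Cd3g and Lat below 1 CPM in every group of B cells, and 6 B cell markers summed to at most 181.2 CPM in T libraries against 3533 or more in B libraries. Naive T libraries, although labelled CD4+, also held CD8 markers (Cd8a and Cd8b1, 501 to 1097 CPM in sum), and EAE T libraries held little of these (13.2 to 26.2 CPM).

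In unstimulated naive B cells complex V had the highest summed TPM. Complex V stood at 2910 ± 307 TPM (SD, n = 3), complex IV at 2040 ± 129, complex I at 1899 ± 144, complex III at 735 ± 64.5 and complex II at 299 ± 14.3, and the values of complexes IV and I lay within their spread. Within complex V the highest member was Atp5b, the catalytic beta subunit, at 987 TPM. The lowest apart from the second Atp5o identifier (0.25 TPM) was Atp5s at 6.70 TPM. Cox7b was the highest member of complex IV at 698 TPM and Cox7b2 the lowest at 0.03 TPM. Complex III ranged from Uqcr11 at 26.8 TPM to Uqcrh, the hinge protein, at 159 TPM. Complex II ranged from Sdhc, a membrane anchor, at 39.2 TPM to Sdha, the flavoprotein, at 180 TPM. Complex I ranged from Ndufa4l2 at 0.66 TPM, with Ndufa8 next at 13.1 TPM, to Ndufa3 at 150 TPM. These levels cover every transcript that the annotation gives a gene, and for some members most of the TPM sat on short transcripts that are not annotated as coding. Only 36.3 of the 698 TPM of Cox7b and 217 of the 987 TPM of Atp5b lay on protein-coding transcripts. For Sdha it was 58.8 of the 180 TPM. By reads the share on protein-coding transcripts was larger, at 47.75% for Cox7b, 58.4% for Atp5b and 92.85% for Sdha. On those transcripts alone complex V stood at 1687 TPM, complex I at 1255, complex IV at 1072, complex III at 589 and complex II at 176, so that complexes I and IV changed places. Of the 81 members at 1 TPM or more, 15 had under 50% of their TPM on coding transcripts and 38 had over 90%.

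Several isoforms known from other tissues were hardly read. Cox4i2, Cox6b2, Cox7a1, Cox7b2, Cox8b and Cox8c, and Ndufa4l2 of the Ndufa4 pair, stayed below 1 CPM in all 60 libraries, while Cox4i1, Cox6a1, Cox6b1, Cox7a2, Cox7b and Cox8a carried the counts. Cox6a2, known as the heart and muscle form of subunit 6a, was the exception in B cells, at 3.17, 3.02 and 2.67 CPM in unstimulated naive B libraries beside 53.3, 59.2 and 52.1 CPM of Cox6a1. All 3 genes of the membrane ring subunit c, Atp5g1, Atp5g2 and Atp5g3, were expressed side by side, at 50.8, 52.0 and 47.2 CPM, at 48.7, 56.3 and 52.6 CPM and at 52.2, 62.2 and 53.3 CPM in the same libraries.

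Members of every complex were higher in receptor-stimulated than in unstimulated B cells. Between CtrlIg and unstimulated cells, 75 of the 80 members tested rose in naive B cells and 0 fell, against 22.7% of all genes tested that rose and 17.5% that fell, by edgeR's quasi-likelihood F-test with a Benjamini-Hochberg adjusted p below 0.05. The EAE B set had 74 of 79 that rose and 0 fell, against 21.1% and 18.8%. The median log2 change of the members was 0.79 and 0.74, beside -0.02 and -0.05 over all genes. In naive B cells 35 of 37 tested members of complex I, 4 of 4 of complex II, 9 of 9 of complex III, 11 of 13 of complex IV and 16 of 17 of complex V rose, with median log2 changes between 0.67 and 0.87. The counts in EAE B cells were 34 of 36, 4 of 4, 9 of 9, 11 of 13 and 16 of 17. Ndufb2, Cox7a2l, Atp5s and Cox7a1 missed the threshold in both sets, Ndufa4l2 in naive B cells and Ndufv3 in EAE B cells.

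The summed CPM shows the size of this shift without a test. All members together stood at 3557, 4037 and 3624 CPM in unstimulated naive B libraries and at 5958, 6167 and 5496 CPM with CtrlIg. Complex V rose from 1716 ± 131 to 2846 ± 201 CPM (SD, n = 3), complex I from 914 ± 52.0 to 1353 ± 66.8, complex IV from 489 ± 38.8 to 793 ± 45.7, complex III from 350 ± 19.8 to 530 ± 24.3 and complex II from 271 ± 21.03 to 351 ± 6.89. In each complex the CtrlIg libraries lay above all unstimulated libraries. The log2 ratio of the means was lowest for complex II, at 0.37, and highest for complex V, at 0.73, so that complex V went from 45.9% ± 0.40 to 48.4% ± 0.61 of the members' counts and complex II from 7.24% ± 0.06 to 5.98% ± 0.24. On the TPM scale the sum of complex II moved by a log2 ratio of only 0.0624 in naive B cells and -0.00102 in EAE B cells. On protein-coding transcripts alone it went from 176 to 221 TPM and from 170 to 208 TPM.

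**Figure D1:**
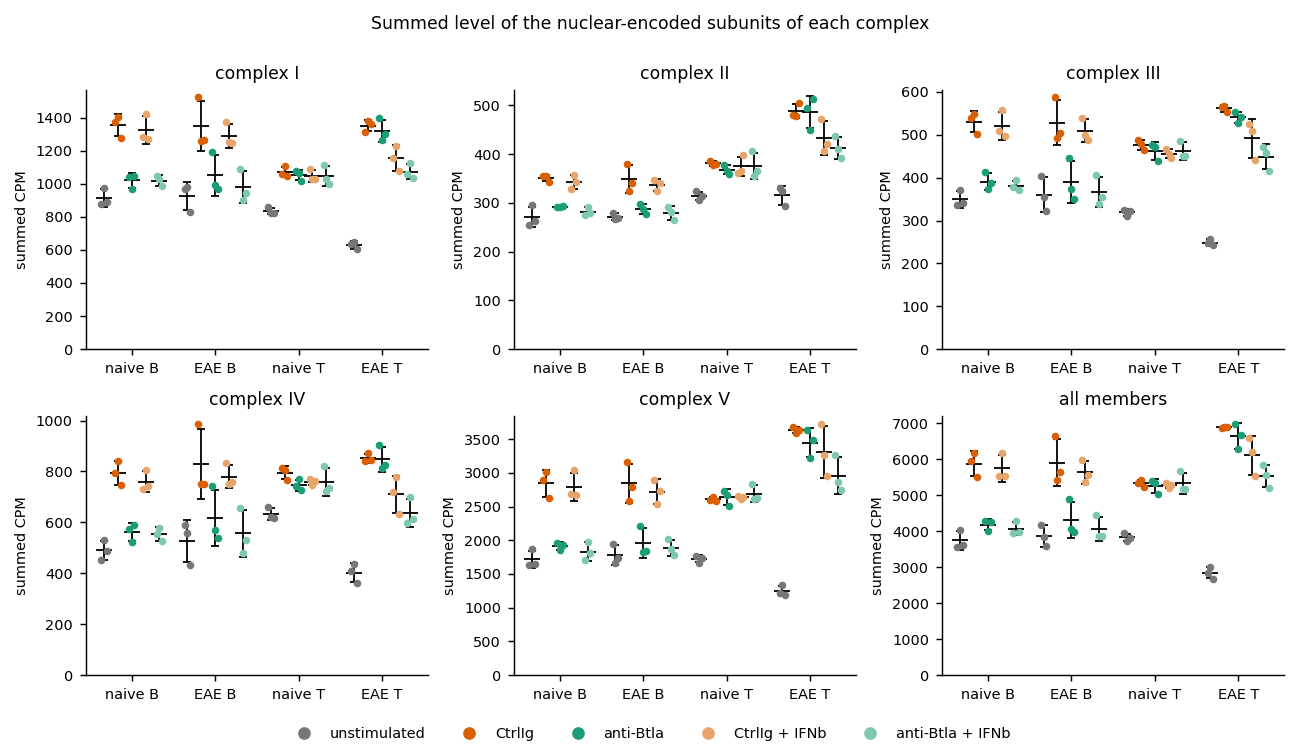
Summed CPM of the tested and untested members of each complex and of all 86 members (y axis) in the 60 libraries, grouped by cell set (x axis) and treatment (colour); points are libraries, the black line is the mean and the bar 1 SD over 3 libraries. CtrlIg points lie above the unstimulated points of the same set in every panel, the anti-Btla points lie near the unstimulated ones in B cells (all members, naive B: 4179 against 3739 CPM), and they lie beside CtrlIg in T cells (naive T: 5265 against 5333 CPM).

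Single members of each complex carried the change with little scatter. Ndufa10, an accessory subunit of complex I, stood at 64.3, 63.8 and 63.3 CPM in unstimulated naive B libraries and at 99.8, 101 and 96.0 CPM with CtrlIg, a log2 change of 0.74 ± 0.05 (SE; adjusted p = 2.07e-08, edgeR). The tests count every transcript of a gene. Only 28.3% and 26.6% of the Ndufa10 reads in these groups lay on protein-coding transcripts, at 10.3 ± 1.30 and 13.3 ± 0.75 TPM (SD). Uqcrq, a small subunit of complex III, went from 20.9, 29.1 and 23.6 to 50, 60.6 and 47.2 CPM, a change of 1.21 ± 0.10 (adjusted p = 2.72e-07, edgeR). In both genes all CtrlIg libraries lay above all unstimulated ones. Sdhc rose by 0.86 ± 0.07 on the log2 scale (adjusted p = 2.25e-07, edgeR). Its TPM, all on protein-coding transcripts, stood at 39.2 ± 1.65 unstimulated and 44.9 ± 1.10 with CtrlIg (SD). Cox7b, a complex IV subunit, rose by 1.09 ± 0.07 (adjusted p = 2.96e-08). Atp5a1, the alpha subunit of the ATP synthase head, rose by 0.76 ± 0.06 (adjusted p = 4.67e-08), both log2 in edgeR. The members with the smallest p in EAE B cells were Ndufa4 (log2 change 1.13 ± 0.06), Sdhd, a membrane anchor of complex II (1.02 ± 0.09), Uqcrc2, a core protein of complex III (0.55 ± 0.05), Cox5a (1.19 ± 0.06) and Atp5g3 (1.03 ± 0.07). EAE B library 1 held the highest summed member level in all 5 EAE B groups, for example at 4177 CPM against 3824 and 3589 unstimulated, 6634 against 5410 and 5649 with CtrlIg and 4891 against 4057 and 3973 with anti-Btla.

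**Figure D2:**
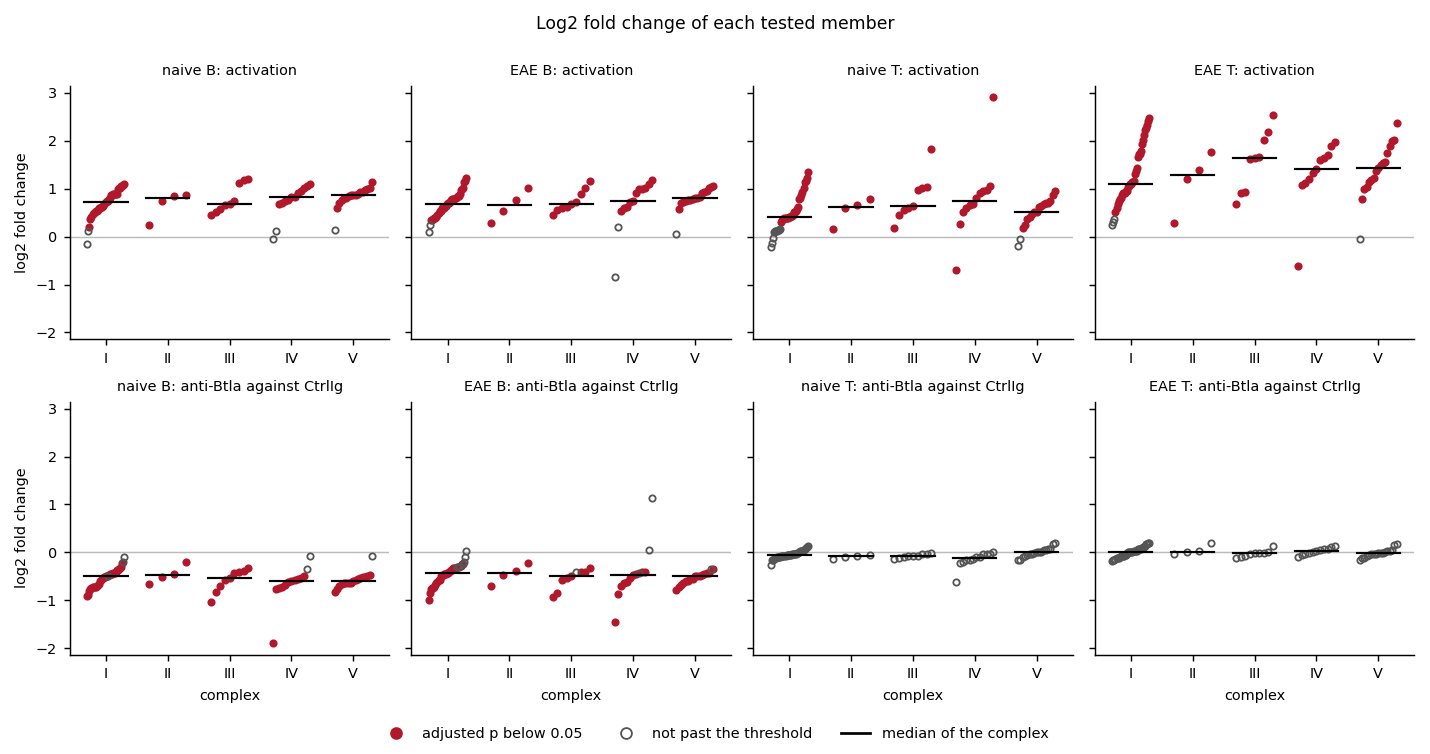
Log2 fold change (y axis) of each tested member by complex (x axis) on activation (top row) and with anti-Btla against CtrlIg (bottom row) in the 4 cell sets; filled red points passed an adjusted p below 0.05, open points did not, and the black line is the median. Nearly all points are above 0 on activation (median 0.79 in naive B and 1.32 in EAE T cells), below 0 with anti-Btla in B cells (median -0.55 in naive B cells) and on 0 with anti-Btla in T cells.

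Anti-Btla lowered members of every complex in stimulated B cells. In naive B cells 74 of 80 tested members fell and 0 rose against CtrlIg, with 19.7% of all genes falling and 13.1% rising, and the members' median log2 change was -0.55 (all genes 0.01). In EAE B cells 67 of 79 fell and 0 rose, with 16.5% of all genes falling and 13.6% rising, and a median of -0.47 (all genes 0.04). By complex 34 of 37, 4 of 4, 9 of 9, 11 of 13 and 16 of 17 members of complexes I to V fell in naive B cells, and 29 of 36, 4 of 4, 8 of 9, 10 of 13 and 16 of 17 in EAE B cells. Activation and anti-Btla share the CtrlIg libraries, so their opposite signs are not independent of each other. Without the replicate number as a block the count in EAE B cells was 23 and that in naive B cells 73.

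Cox5a, a matrix-side subunit of complex IV, shows the 3 arms in naive B cells: 57.5, 66.5 and 58.5 CPM unstimulated, 113, 126 and 111 CPM with CtrlIg, and 76.8, 65.9 and 74.5 CPM with anti-Btla. The anti-Btla libraries lay below every CtrlIg library, a log2 change of -0.77 ± 0.07 (SE; adjusted p = 1.38e-06, edgeR), and overlapped the unstimulated ones. Sdhd stood at 65.4, 61.9 and 66.2 CPM with CtrlIg and at 45.3, 41.9 and 43.3 CPM with anti-Btla (-0.66 ± 0.10, adjusted p = 0.000105, edgeR). Uqcrq fell by 1.03 on the log2 scale, to 27.7, 25.2 and 28.4 CPM (adjusted p = 2.55e-06, edgeR). Ndufa10 changed by -0.43 ± 0.05 (adjusted p = 6.92e-06, edgeR) and Atp5a1 by -0.55 ± 0.05 (adjusted p = 2.07e-06, edgeR), the latter from 529, 519 and 490 to 369, 377 and 370 CPM. On protein-coding transcripts alone Ndufa10 stood at 13.3 ± 0.75 TPM (SD) with CtrlIg and at 12.2 ± 1.51 TPM with anti-Btla, and these spreads overlapped. Cox5a in EAE B cells changed by -0.87 ± 0.07 and Sdhd by -0.70 ± 0.09, and Uqcrq by -0.93 ± 0.11, Ndufa4 by -0.74 ± 0.06 and Atp5g3 by -0.71 ± 0.07.

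Cox6a2 had the largest fitted fall of any member with anti-Btla. In naive B cells it rose on activation from 3.17, 3.02 and 2.67 to 4.85, 5.28 and 3.61 CPM (log2 0.74 ± 0.18, adjusted p = 0.0033, edgeR) and fell with anti-Btla to 1.78, 0.95 and 1.16 CPM (-1.90 ± 0.19, adjusted p = 2.39e-06, edgeR). Those 3 libraries lay below the unstimulated ones as well, and Cox6a2 was the only member called lower in anti-Btla than in unstimulated cells (-1.16 ± 0.19, adjusted p = 0.00156, edgeR). Cox6a2 in EAE B cells stood at 3.62, 3.78 and 2.73, then 8.12, 4.95 and 5.99, then 3.94, 1.95 and 1.38 CPM in the same order (anti-Btla against CtrlIg -1.45 ± 0.25, adjusted p = 0.000577, edgeR). Its partner Cox6a1 changed by -0.55 ± 0.07 and -0.40 ± 0.14. Cox6a2 overlaps Itgad on the opposite strand, and without a stated strand its reads and those of Itgad cannot be told apart.

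Some members stayed above the unstimulated level in anti-Btla-treated B cells. In naive B cells 16 of 80 members were higher and 1, Cox6a2, lower than in unstimulated cells, where 3.65% of all genes were higher and 4.06% lower. In EAE B cells 18 of 79 were higher and 0 lower, where 3.24% were higher and 2.49% lower. The median log2 differences were 0.19 and 0.23. The members with the smallest p in naive B cells were Ndufa10 (0.31 ± 0.05), Sdhc (0.41 ± 0.07), Uqcrh (0.34 ± 0.08), Cox7b (0.42 ± 0.07) and Atp5g2 (0.41 ± 0.09). In TPM, all of it on protein-coding transcripts, Sdhc was not higher. It stood at 39.2 ± 1.65 unstimulated and 37.1 ± 2.28 with anti-Btla (SD). Ndufa10, Uqcrh, Cox7b and Atp5g2 had higher mean coding TPM with anti-Btla. In EAE B cells the members were Ndufa4 (0.39 ± 0.06), Uqcrh (0.41 ± 0.09), Cox7b (0.48 ± 0.07) and Atp5a1 (0.32 ± 0.06). These counts were not stable: without the block they were 8 and 0, leaving out naive B anti-Btla library 1 or 3 or unstimulated library 1 or 3 gave 5, 5, 6 and 9, and leaving out anti-Btla library 2 gave 34. For EAE B cells, leaving out anti-Btla library 1 or 2 gave 7, leaving out unstimulated library 1 or 3 gave 8 and 9, and leaving out unstimulated library 2 gave 29.

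Members also fell with anti-Btla where IFNb was present in both arms. Between anti-Btla with IFNb and CtrlIg with IFNb, 71 of 80 members fell in naive B cells (17.6% of all genes fell and 12% rose) and 69 of 79 in EAE B cells (17.4% fell and 13.6% rose), and 0 members rose in either set. The medians were -0.50 and -0.51, and without the block the EAE B count was 34. The members with the smallest p were Ndufa10, Sdhd, Cyc1 (cytochrome c1 of complex III), Cox5a and Atp5b in naive B cells, with log2 changes of -0.40, -0.70, -0.63, -0.76 and -0.95. In EAE B cells they were Ndufa4, Sdhd, Uqcrq, Cox5a and Atp5a1, with -0.62, -0.65, -1.17, -0.72 and -0.53. The difference between the anti-Btla effects with and without IFNb was past the threshold for 0 members and 0% of all genes in either B set, by edgeR, and 0 members had an unadjusted p under 0.05. DESeq2 called 0 members too. The difference of the anti-Btla effects between EAE and naive B cells was likewise past the threshold for 0 of 81 members and 0% of all genes in edgeR, with 0 members at an unadjusted p under 0.05 and 0 called by DESeq2.

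IFNb on its own, CtrlIg with IFNb against CtrlIg, moved 0 members past the threshold in any of the 4 sets by edgeR or DESeq2. Of all genes 0% were called in naive B, EAE B and naive T cells and 0.158% in EAE T cells. At an unadjusted p under 0.05 there were 3 and 6 members in naive and EAE B cells and 5 and 21 in naive and EAE T cells, and the members' median log2 changes were -0.08, -0.09, -0.05 and -0.16.

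Activated T cells raised the members too, and the median rise was larger in EAE than in naive cells. In naive T cells 65 of 78 tested members rose and 1 fell on anti-CD3 stimulation, against 27.2% and 23% of all genes. In EAE T cells 72 of 77 rose and 1 fell, against 31.7% and 31.4%. The median log2 change was 0.52 in naive and 1.32 in EAE T cells. In naive T cells 26 of 36 members of complex I rose, 4 of 4 of complex II, 9 of 9 of complex III, 11 of 12 of complex IV and 15 of 17 of complex V. Among those of complex IV was Cox6a2, at 0.43 TPM unstimulated, so its call rests on few counts. In EAE T cells 33 of 36, 4 of 4, 9 of 9, 10 of 11 and 16 of 17 rose. Uqcrq led complex III in naive T cells, from 12.0, 12.1 and 11.3 to 42.6, 45.4 and 34.9 CPM (log2 1.83 ± 0.09, adjusted p = 5.36e-12, edgeR), with CtrlIg libraries far above the unstimulated ones. Ndufc2, a small membrane subunit of complex I, rose by 1.23 ± 0.09, Sdhb, the iron-sulfur subunit of complex II, by 0.79 ± 0.09, Cox7c by 0.97 ± 0.05 and Atp5b by 0.95 ± 0.04. Cox7c shares 24.6% of its 31-base words with other genes, among them processed copies, so its reads are in part uncertain. Cd8a and Cd8b1 both fell on activation of naive T cells, from 926 to 1097 CPM in sum to 501 to 763 CPM in the stimulated libraries, and their part in these changes was not tested.

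In EAE T cells Atp5e, the epsilon subunit of the ATP synthase head, went from 15.4, 14.3 and 15.5 to 56.7, 62.9 and 59.3 CPM (log2 2.02 ± 0.11, adjusted p = 4.21e-10, edgeR). Ndufc2 went from 10.8, 13.1 and 9.71 to 57.5, 54.3 and 57.6 CPM (2.40 ± 0.12, adjusted p = 1.81e-10, edgeR). Both groups of 3 were far apart in each gene. Uqcrfs1, the Rieske iron-sulfur protein of complex III, rose by 1.67 ± 0.10, Cox7b by 1.97 ± 0.12 and Sdhb by 1.39 ± 0.09. The summed CPM of all members was 2844, 2993 and 2683 in unstimulated EAE T libraries and 6879, 6886 and 6898 with CtrlIg, and complex V moved from 43.8% ± 0.72 to 52.8% ± 0.71 of the members' counts while complex II moved from 11.1% ± 0.43 to 7.08% ± 0.20. Myeloid markers, 6 genes in sum, stood at 130.5 to 371 CPM in the unstimulated and 26.5 to 95.7 CPM in the stimulated EAE T libraries, and all 6 fell on activation. Their part in these changes was not tested.

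Cox7a2l ran against the other members. It encodes a factor known for joining complexes III and IV into supercomplexes, and it was the only member called lower on activation in either T set. In naive T cells it stood at 228, 212 and 206 CPM unstimulated and at 127, 124 and 129 CPM with CtrlIg (log2 -0.70 ± 0.07, adjusted p = 1.17e-07, edgeR). In EAE T cells it went from 122, 108 and 92.3 to 64.3, 65.9 and 71.7 CPM (-0.62 ± 0.12, adjusted p = 0.000262, edgeR). The groups did not overlap in either set. In B cells it lay between 52.6 and 75.8 CPM in the unstimulated, CtrlIg and anti-Btla libraries and missed the threshold on activation (0.12 ± 0.08 in naive and 0.20 ± 0.12 in EAE B cells). It shares 16.6% of its 31-base words with copies that held almost no reads.

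Ndufb2, a small accessory subunit of complex I, missed the threshold on activation in all 4 sets. Its CPM was 31.4, 26.03 and 31.2 unstimulated and 27.4, 29.1 and 32.3 with CtrlIg in naive B cells, and 26.4, 19.96 and 27.1 against 22.8, 22.4 and 19.4 in naive T cells. The groups overlapped in both. The log2 changes were 0.11 ± 0.07, 0.10 ± 0.07, -0.14 ± 0.10 and 0.24 ± 0.13 in naive and EAE B cells and then naive and EAE T cells. Its annotated exons overlap another gene on the same strand and Braf on the opposite strand. The tests count all its transcripts. On protein-coding transcripts alone Ndufb2 stood at 19.8 ± 3.95 TPM (SD) unstimulated and 38.2 ± 3.84 TPM with CtrlIg in naive B cells. In EAE T cells the values were 3.71 ± 1.86 and 27.5 ± 5.31 TPM. So Ndufb2 was level in CPM but not in coding TPM, and the latter was not tested.

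**Figure D3:**
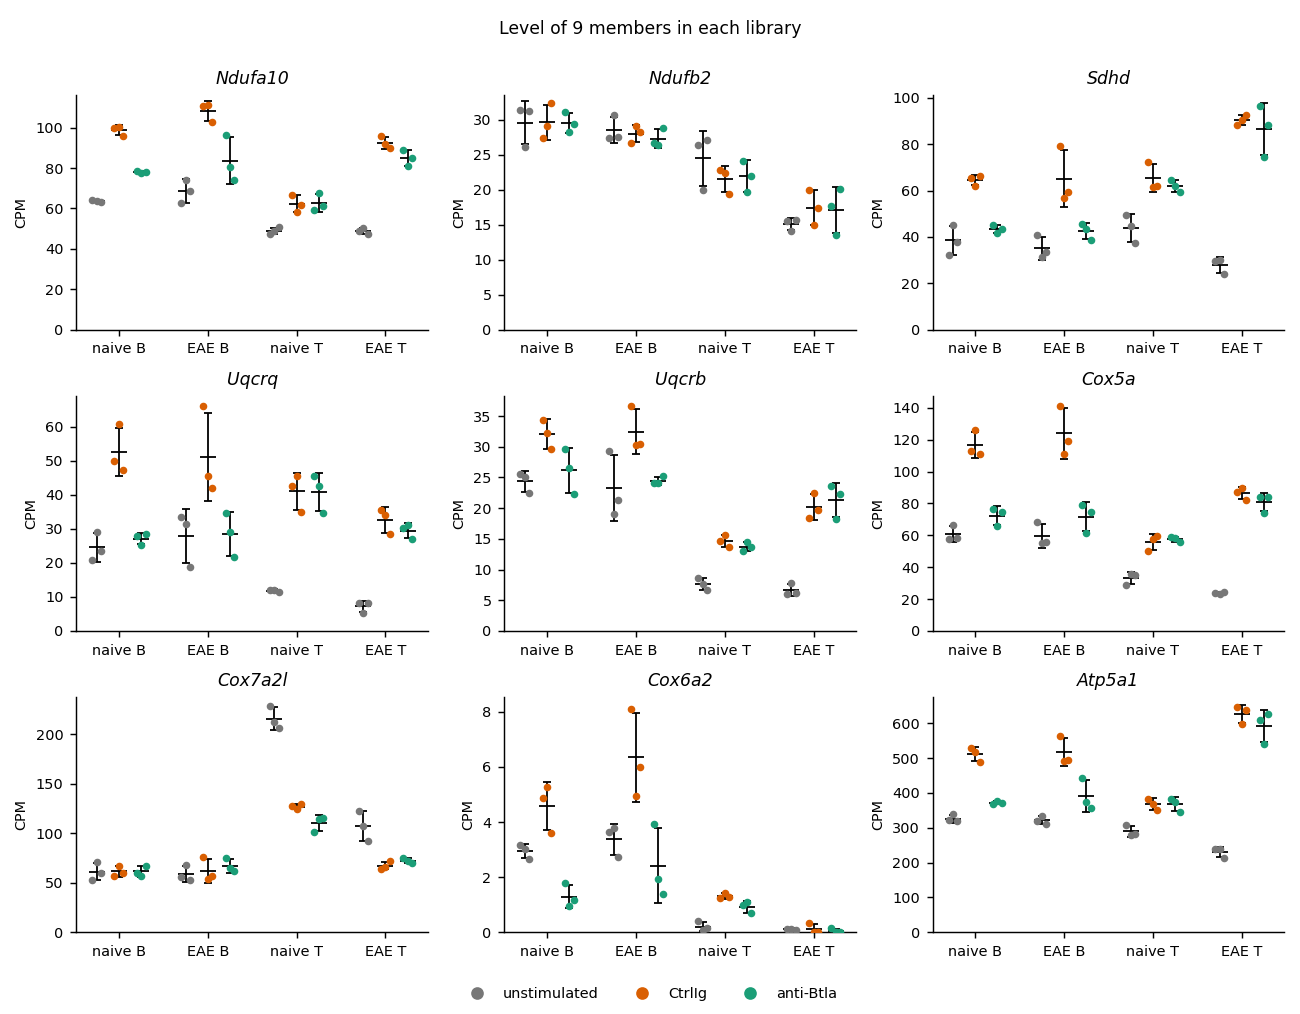
CPM (y axis) of 9 members in the unstimulated, CtrlIg and anti-Btla libraries of the 4 cell sets (x axis); points are libraries, the black line is the mean and the bar 1 SD over 3 libraries. Ndufa10, Sdhd, Uqcrq, Cox5a and Atp5a1 are high with CtrlIg and near the unstimulated level with anti-Btla in B cells. Ndufb2 is level in CPM, which counts all its transcripts. Cox7a2l is at 206 to 228 CPM in unstimulated naive T cells and lower elsewhere, and Cox6a2 is near 0 in EAE T cells.

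In T cells no member passed the threshold with anti-Btla against CtrlIg. In naive T cells 0 of 78 and in EAE T cells 0 of 77 members were called in edgeR, where 0% and 0.0687% of all genes were called, and DESeq2 called 0 members in both. At an unadjusted p under 0.05 there were 9 and 1 members, and the medians were -0.06 and 0.00. Atp5a1 read 384, 370 and 350 CPM with CtrlIg and 384, 374 and 346 CPM with anti-Btla in naive T cells. With IFNb present the counts were again 0 and 0, where 0.0132% and 0% of all genes were called, with 3 and 10 members at an unadjusted p under 0.05 and 0 called by DESeq2. The difference in anti-Btla effect between B and T cells was not itself tested.

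Activation of naive B cells and of naive T cells was compared in 1 model. For 23 of 81 members the 2 changes differed, 18 toward B cells and 5 toward T cells, where 9.03% of all genes differed toward B and 14.7% toward T cells. The differences with the smallest p in complexes III, IV and V were Uqcrq (-0.67 ± 0.15 on the log2 scale, B minus T), Cox7a2l (0.77 ± 0.12) and Atp5h, a stalk subunit of complex V (0.86 ± 0.12). The other members that rose more in T cells were Ndufs8 (-0.87 ± 0.17), Uqcrb (-0.57 ± 0.14), Cyc1 (-0.30 ± 0.10) and Cox6a2 (-2.27 ± 0.47). Cox6a2 averaged only 0.43 TPM in unstimulated naive T cells. Its difference therefore rests on few counts and is no evidence of a larger rise in T cells. The call of Cyc1 was lost in 11 of 18 alternatives. Atp5h shares 25.4% of its 31-base words with other genes.

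At rest the members as a body were at a like level in B and T cells, with large differences in single genes. Of 80 members tested between unstimulated naive B and T cells, 26 were higher in B cells and 17 higher in T cells, where 32.9% of all genes were higher in B and 30.7% higher in T cells, and the median log2 difference was 0.03. The largest differences with a mean of at least 10 CPM are seen in Cox7a2l, at 53.1, 70.7 and 59.7 CPM in B and 228, 212 and 206 CPM in T cells (log2 -1.83 ± 0.10, adjusted p = 6.44e-08, edgeR), and in Uqcrb, the QP-C subunit of complex III, at 25.6, 25.1 and 22.4 CPM in B and 8.63, 7.70 and 6.70 CPM in T cells (1.69 ± 0.12, adjusted p = 4.76e-07, edgeR). Ndufs8, a core iron-sulfur subunit of complex I, stood at 29.8, 35.4 and 27.5 CPM in B and 11.8, 7.44 and 10.1 CPM in T cells (1.66 ± 0.16, adjusted p = 4.92e-06, edgeR). No library of the other cell type overlapped in these genes. Atp5h (-0.96 ± 0.07) and Sdha (-0.33 ± 0.06) were higher in T cells. Others higher in T cells were Ndufa6, Ndufa9, Ndufs5, Ndufs7, Ndufv3, Sdhc, Uqcrh, Cox4i1, Cox6b2, Cox7a1, Cox8a, Atp5j and Atp5j2, with log2 differences from -0.19 in Atp5j to -1.27 in Cox7a1, the last at under 1 CPM in every library compared. Several of these calls were lost in many of 12 alternatives: Ndufs5 in 10, Cox6b2 and Cox7a1 in 8, Sdhc and Atp5j2 in 7, Atp5j in 6 and Ndufs7 in 4. On protein-coding transcripts alone Sdhc ran the other way, at 39.2 ± 1.65 TPM (SD) in B and 24.84 ± 3.64 TPM in T cells. Ndufv3 did so as well, at 25.99 ± 0.61 TPM in B and 20.01 ± 3.53 TPM in T cells. The other members named as higher in T cells also had higher mean coding TPM there. Differences in coding TPM were not tested. Cox6a2 was read at 2.67 to 3.17 CPM in B and at 0.39, 0.09 and 0.14 CPM in T cells, and it passed the filter through the B libraries. Uqcrb shares 32.4% of its 31-base words with other loci, among them processed copies.

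Immunization went with a difference in unstimulated T cells, and none was detectable at this depth in unstimulated B cells. Between unstimulated EAE and naive B cells 0 of 80 members were called, as 0.0492% of all genes were, with 3 members at an unadjusted p under 0.05 and 0 called by DESeq2. The median difference was 0.08. Between unstimulated EAE and naive T cells 45 of 77 members were lower in EAE and 2 higher, where 17% of all genes were lower and 18.6% higher, and the median log2 difference was -0.39. By complex 19 of 36, 2 of 4, 5 of 9, 8 of 11 and 11 of 17 were lower. Ndufb11, a membrane subunit of complex I, stood at 30.5, 31.1 and 25.6 CPM in naive and 14.2, 11.4 and 12.7 CPM in EAE T cells (-1.11 ± 0.12, adjusted p = 0.000209, edgeR), with no overlap. Sdhd (-0.57 ± 0.13), Uqcr10 (-0.93 ± 0.13), Cox7a2l (-0.93 ± 0.10) and Atp5h (-0.99 ± 0.10) were the members with the smallest p in the other complexes. Sdha (0.24 ± 0.07) and Uqcrc2 (0.30 ± 0.08) were higher in EAE, and the call of Sdha was lost in 8 of 12 alternatives. Leaving out naive T unstimulated library 1, 2 or 3 gave 29, 28 and 28 called members. In these unstimulated T libraries CD8 markers summed to 926 to 1097 CPM in naive and 19.6 to 26.2 CPM in EAE cells and myeloid markers to 16.5 to 27.1 and 130.5 to 371 CPM, and their part in the difference was not tested.

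After activation the order turned over. Between CtrlIg-stimulated EAE and naive T cells, a comparison added after the data were seen, 53 of 78 members were higher in EAE and 3 lower, where 27.7% of all genes were higher and 23.9% lower (median 0.41). Atp5a1 stood at 384, 370 and 350 CPM in naive and 646, 599 and 638 CPM in EAE cells (0.85 ± 0.06, adjusted p = 3.01e-06, edgeR), and the groups did not overlap. Ndufc2 was higher by 1.24 ± 0.09, Sdhd by 0.56 ± 0.08 and Uqcrfs1 by 0.57 ± 0.07. The lower members were Cox7a2l (-0.83 ± 0.08), Ndufb4 (-0.34 ± 0.12, a call lost in 6 of 12 alternatives) and Cox6a2. Cox6a2 read 1.23, 1.44 and 1.27 CPM in naive and 0.32, 0 and 0 CPM in EAE cells; it did not pass the filter within the EAE T set and entered this comparison only through the naive libraries, so its call is no evidence of a difference. The activation effects themselves differed, in a second added comparison, for 67 of 78 members: 66 rose more in EAE T cells, and the other 1 was Cox6a2, which again entered only through the naive libraries and lost its call in 11 of 18 alternatives, where 20.8% of all genes differed upward and 17% downward (median 0.84). The differences with the smallest p were Ndufb11 (1.88 ± 0.19), Sdhd (1.18 ± 0.16), Uqcrfs1 (1.17 ± 0.12), Cox7a2 (1.16 ± 0.15) and Atp5a1 (1.16 ± 0.09). The unstimulated and CtrlIg libraries are shared by these comparisons, so they are not independent of each other, and naive and EAE cells came from separate sets of mice, so any difference in handling and immunization cannot be told apart.

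The mitochondrial genome encodes 13 further subunits of complexes I, III, IV and V, whose transcripts were counted in the same way. No test compared them with the nuclear-encoded members. On activation 7 of 13 rose in naive B and 10 of 13 in EAE B cells, with medians of 0.22 and 0.39 on the log2 scale, and 0 fell. Of all genes 22.7% and 21.1% rose in these sets. In naive T cells 4 fell and in EAE T cells 11 fell, with medians of -0.06 and -1.26, where 23% and 31.4% of all genes fell. With anti-Btla 1 of 13 fell in naive B cells, mt-Nd3, and 3 fell in EAE B cells, where 19.7% and 16.5% of all genes fell. The ratio of summed mitochondrial to nuclear subunit CPM was 11.6, 9.76 and 11.3 in unstimulated naive B libraries, 7.29, 6.15 and 8.32 with CtrlIg and 10.97, 11.7 and 10.6 with anti-Btla, so the CtrlIg libraries lay below both other groups. In EAE T cells the ratio was 18.7, 17.7 and 26.1 unstimulated, 1.85, 4.08 and 3.07 with CtrlIg, and 5.58, 5.99 and 4.43 with anti-Btla. With IFNb it was 8.88, 9.22 and 13.4 in the CtrlIg arm and 11.3, 13.6 and 19.7 in the anti-Btla arm. The CtrlIg libraries without IFNb thus held the lowest ratios of this set. IFNb raised 12 of these 13 transcripts in EAE T cells (median 1.68; mt-Nd6 1.38 ± 0.15, adjusted p = 0.000678, edgeR), out of 23 genes called in all. The labels do not give the order in which libraries were handled, and a part of handling in these changes was not tested.

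**Figure D4:**
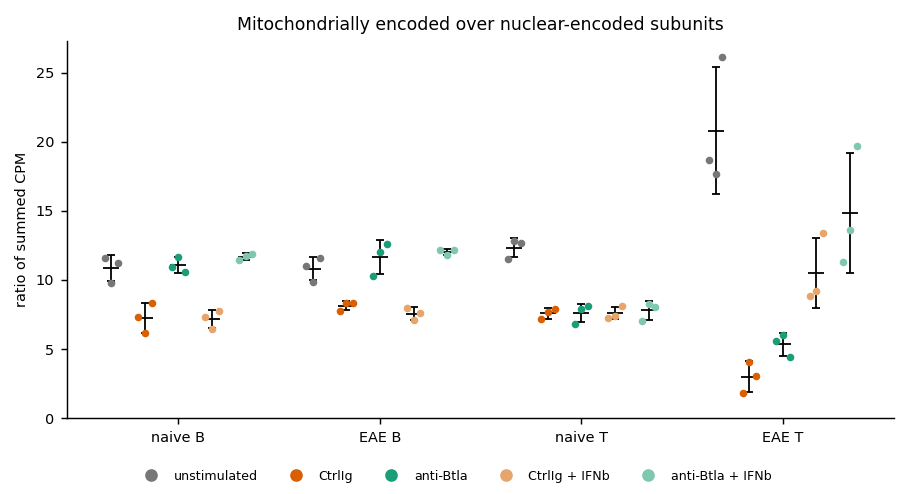
Ratio of the summed CPM of the 13 mitochondrially encoded subunits to that of the 86 nuclear-encoded members (y axis) in each library, by cell set (x axis) and treatment (colour); points are libraries, the black line is the mean and the bar 1 SD over 3 libraries. In B cells the ratio is lower with CtrlIg than without stimulation or with anti-Btla (naive B means 7.25, 10.9 and 11.1), and in EAE T cells it spans from 1.85 to 26.1.

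Genes that work beside the members were counted in the same comparisons. Of 13 genes of the tricarboxylic acid cycle, which feeds the chain with electrons, 12 and 13 rose on activation in naive and EAE B cells and 10 and 13 in naive and EAE T cells, and 13 and 12 fell with anti-Btla in naive and EAE B cells. Citrate synthase, Cs, rose by 0.55 ± 0.05 and fell by 0.38 in naive B cells, and Mdh2, malate dehydrogenase, rose by 0.74 ± 0.07 and fell by 0.63. Of 19 genes of the mobile carriers and exchange proteins, 12, 13, 11 and 15 rose on activation and 1, 1, 0 and 1 fell. With anti-Btla 9 and 11 of them fell and 1 rose in each B set. For both lists the shares of all genes, naive before EAE, were as follows. Activation raised 22.7% and 21.1% in B cells and 27.2% and 31.7% in T cells. It lowered 17.5% and 18.8% in B cells and 23% and 31.4% in T cells. Anti-Btla lowered 19.7% and 16.5% in B cells and raised 13.1% and 13.6%. Slc25a5, an ADP/ATP carrier, rose by 1.06 ± 0.06 and fell by 0.85 in naive B cells, and Cycs, cytochrome c, rose by 0.51 ± 0.08 and fell by 0.55.

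Assembly factors build the complexes but are not part of them. Of 47 tested, 26 and 23 rose and 0 fell on activation in naive and EAE B cells, 23 rose and 3 fell in each T set, and 20 and 13 fell with anti-Btla in naive and EAE B cells. Over all genes 22.7% and 21.1% rose in these B sets and 27.2% and 31.7% in naive and EAE T cells. With anti-Btla 19.7% and 16.5% of all genes fell. Coa5 rose by 0.46 ± 0.05 and fell by 0.42 in naive B cells, and Ndufaf4 rose by 1.60 ± 0.09 in naive T cells. Regulators of respiratory genes moved in both directions. Of 13 tested, 4, 2 and 6 rose and 3, 3 and 2 fell on activation in naive B, EAE B and naive T cells, 7 rose and 2 fell of 12 in EAE T cells, and with anti-Btla 2 and 1 rose and 5 and 5 fell in naive and EAE B cells. The shares of all genes that rose or fell, given above for each comparison, are close to several of these counts (22.7% rose and 17.5% fell on activation of naive B cells), so they set the regulators apart from other genes in no clear way. Myc rose by 0.67 ± 0.07 on activation and fell by 0.95 with anti-Btla in naive B cells, and rose by 3.64 ± 0.06 in naive T cells. Pprc1, a coactivator of the PGC-1 family, rose by 0.36 ± 0.07 and fell by 0.56 in naive B cells. Tfam, which packs and transcribes the mitochondrial genome, changed by 0.02 ± 0.06 on activation (adjusted p = 0.801, edgeR) and fell by 0.26 with anti-Btla. Ppargc1a and Nrf1 ran the other way at points: Ppargc1a rose by 0.64 ± 0.12 with anti-Btla and Nrf1 fell by 0.34 on activation in naive B cells.

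Member transcripts are short, with a median length of 794 to 834 bases weighted by reads over the sets, and other short genes were therefore set beside them. In naive B cells 52 of the 80 members tested were themselves short, while the medians given for the members are those of all members tested. Among the other protein-coding genes with transcripts under 1000 bases, 943 were tested in naive B cells; their median log2 change on activation was 0.30, with 42.6% rising and 6.36% falling, and -0.24 with anti-Btla, with 35.8% falling. The medians in EAE B cells were 0.26 and -0.15. On activation they were 0.19 in T cells of naive and 0.77 in those of EAE mice, beside 0.52 and 1.32 for the members. In EAE T cells 54.1% of the short genes rose on activation and 14.9% fell. Between unstimulated EAE and naive T cells the short genes stood at -0.38 and the members at -0.39, and between the CtrlIg-stimulated ones at 0.10 and 0.41. In the unstimulated comparison 36.4% of the short genes were lower in EAE and 11.5% higher. Longer genes lay between -0.08 and 0.03 in all these comparisons. The part of transcript length in the members' changes was not tested.

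**Figure D5:**
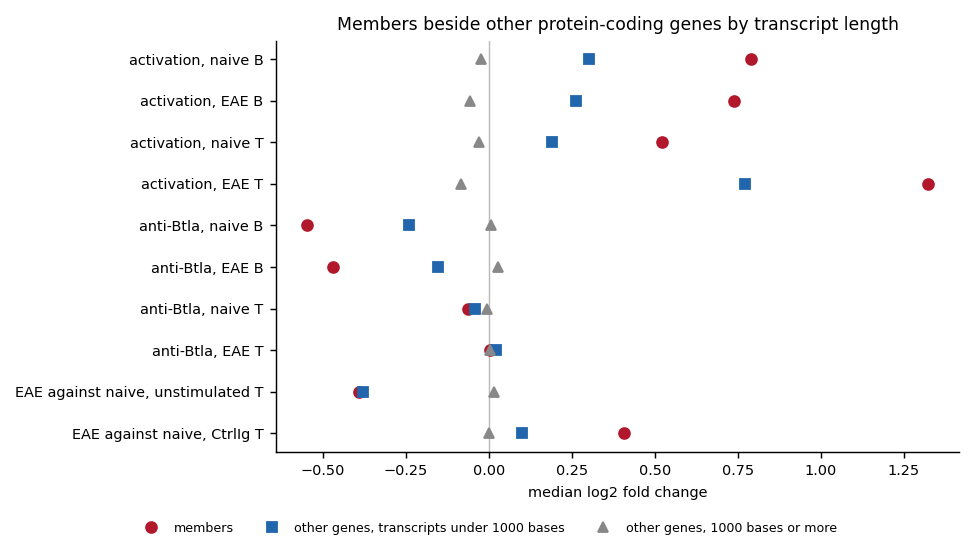
Median log2 fold change (x axis) of the members (red circles), of the other protein-coding genes with read-weighted transcript lengths under 1000 bases (blue squares) and of those of 1000 bases or more (grey triangles) in 10 comparisons (rows). The red points lie beyond the blue ones on activation and with anti-Btla in B cells (naive B activation: 0.79, 0.30 and -0.02), and red and blue lie together for unstimulated EAE against naive T cells (-0.39 and -0.38).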

How the data were processed

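Messenger RNA was sequenced from B and CD4+ T cells, and the authors deposited a Salmon quantification for each library, mapped to transcripts of GRCm38; versions of Salmon and DESeq2, the kit and the strand: not given in the sources used here. Each deposited table gives an estimated count and a TPM value per transcript. The 67 tables made 60 libraries, because 7 libraries were run 2 times and their estimated counts were summed; the runs of 1 library differed by a chi-square per degree of freedom of 1.53 to 1.65, and replicates of 1 group by 4.39 to 55.4. Estimated counts were summed per gene (GENCODE M21) and rounded to whole numbers for the tests. Transcripts matched to no gene, 648 in B and 1000 in T tables, held 0.186% to 0.714% of the counts and were left out.

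Groups came from the sample labels. Each set of 15 libraries was fitted in edgeR 4.0.16 (R 4.3.3, limma 3.58.1) with TMM scaling, genes kept by filterByExpr with a minimum count of 10, and the quasi-likelihood F-test, with Benjamini-Hochberg adjustment over all genes tested and a threshold of 0.05. The replicate number entered as a block within each set, after the study's methods, and not between sets. Libraries of the same number deviated together: the median correlation of their deviations was 0.452 and 0.564 in naive and EAE B cells and 0.244 and 0.346 in naive and EAE T cells, and over 0.1 in 25, 29, 29 and 29 of 30 pairs. Alternatives were RLE scaling, library totals, DESeq2 1.42.0, no filter, the mitochondrial genome left out, the block left out or added, and each library left out in turn.

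The members, lists and tests were chosen with earlier results of these data known, and 2 comparisons of EAE with naive T cells, the transcript length split, the coding-transcript levels and the values of processed copies were added after seeing the data. Named genes are, for each comparison and complex, the called member of smallest p with a mean of at least 10 CPM, members called against the majority, isoform pairs, the highest and lowest members by TPM, and up to 3 of each other list with the smallest p, besides Cycs, Myc, Tfam and Pprc1. Ndufb2, Cox7a2l in B cells and the 5 members higher in T cell activation were also singled out after their values were seen. The single-gene results of 1 member are not reported here; it stays in the counts. Of the 86 members 63 share under 10% of their 31-base words with other genes, and 22 overlap a gene on the opposite strand, among them Atp5a1, Uqcrb, Cox6a2, Ndufb2 and Ndufb11, whose reads cannot be told apart from that gene's without strand.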

Additional observations from a re-analysis of the deposited data

Results flagged for a closer look

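The activation effects of naive B and naive T cells differed past the threshold for 23 members in a test of the difference itself (edgeR's quasi-likelihood F-test). Of all genes 9.03% differed toward B cells and 14.7% toward T cells. Among the 23 members were Uqcrq (log2 difference -0.67, B minus T), Cox7a2l (0.77) and Atp5h (0.86).

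The activation effects of EAE T and naive T cells differed for 67 members in the same kind of test, with Ndufb11 (log2 difference 1.88, EAE minus naive), Sdhd (1.18), Uqcrfs1 (1.17), Cox7a2 (1.16) and Atp5a1 (1.16) among them. Of all genes 20.8% differed upward and 17% downward. CD8 and myeloid markers also differed between these T cell sets, and their part was not tested.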

How the results depend on the processing

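Leaving out the replicate block lowered the count of called members from 67 to 23 for anti-Btla in EAE B cells, from 69 to 34 with IFNb in EAE B cells, and against unstimulated cells from 17 to 8 in naive B and from 18 to 0 in EAE B cells; the cause was not tested. Adding or dropping the block moved no other count of called members by over 1.5 times. Without the filter on low counts 1 member was called with anti-Btla in naive T cells. Leaving out 1 library gave 5 to 34 and 7 to 29 called members for anti-Btla against unstimulated naive and EAE B cells, and 28 to 50 for unstimulated EAE against naive T cells. For activation it gave 73 to 75 and 71 to 76 in naive and EAE B cells and 60 to 65 and 73 to 75 in naive and EAE T cells. For anti-Btla it gave 69 to 74 and 57 to 67 in naive and EAE B cells, and with IFNb 54 to 66 and 61 to 68. It gave 33 to 46 for B against T cells, 48 to 56 for CtrlIg T cells, 62 to 69 for the activation difference between T sets and 18 to 27 for that between B and T cells.

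Summed as TPM in place of CPM, complex II moved on activation by a log2 ratio of 0.0624 in naive B, -0.00102 in EAE B (a reversed sign) and 0.24 in naive T cells, and with anti-Btla by -0.0113 in EAE B cells. Other TPM sums that moved by more than the spread were, on activation, complex V in EAE B cells (0.53), complexes III, IV and V in naive T cells (0.64, 0.68 and 0.66) and complexes I, III, IV and V in EAE T cells (1.47, 1.51, 1.54 and 1.85), and, with anti-Btla in EAE B cells, complexes I and IV (-0.45 and -0.57). Leaving the mitochondrial genome out of the total gave 1.12 for complex III in EAE T activation. Scaling by library totals moved the median of all genes to -0.13 and -0.18 on activation of naive and EAE B cells and to 0.10 and 0.12 with anti-Btla, and the members' medians were then 0.68, 0.61, -0.46 and -0.38. Among the named genes 1164 values kept their direction and side of the threshold, 108 lost the call and 0 reversed.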

Other observations

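A processed copy of Uqcrb, Gm2962 (chr1:170925309-170925644 on GRCm38, minus strand), was read in B cells only at more than trace level and ran against its parent. It stood at 3.995 to 13.2 CPM over 30 B libraries (median 7.86) and at 0 to 0.15 CPM over 30 T libraries, where it held 7.78 estimated counts in all. In naive B cells Gm2962 fell by 0.45 on the log2 scale on activation and rose by 0.49 ± 0.11 with anti-Btla (adjusted p = 0.00474 and 0.00347, edgeR). In EAE B cells it fell by 0.47 and rose by 0.63 ± 0.19 (adjusted p = 0.0462 and 0.0200, edgeR). Both copies of Cox7c that were examined, Gm10012 and Gm12338, rose on activation of naive B cells by 0.77 ± 0.09 and 0.90 ± 0.13. How Salmon divides reads between such copies and their parents was not tested.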
